A study of Mus musculus with 31 samples.

Results

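The 6 wild-type (WT) eyes described here were those labelled WT among 20 embryonic mouse eyes, on 31 arrays, from a study of *Ftx*, a non-coding gene of the X-inactivation centre. They were chosen by that label alone, and a WT female eye numbered 3 was not analysed here. Of the 6, 3 were from females (XX 1, XX 2 and XX 4) and 3 from males (XY 1, XY 2 and XY 3), all at embryonic day 13.5 (E13.5), untreated, and from mice that carried no *Ftx* deletion, while the other 14 eyes were from *Ftx* KO animals and served here only in the normalization of the arrays. The pigmented epithelium had been removed by dissection before RNA was taken, so lens, neural retina and whatever ciliary, vascular and mesenchymal tissue stayed attached were measured together, and more cells of a type cannot be told apart from more RNA per cell. Each of the 6 eyes is represented by a single 1-colour array, and the labels do not say whether the eyes came from different embryos, so the spread between eyes may include technical spread. The 6 arrays shared 1 slide, with the XX eyes in row 1 and the XY eyes in row 2, so that sex and row cannot be told apart, and the 2 sexes were not compared.

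At this stage the optic cup has formed, and most cells of the inner layer are dividing retinal progenitors, held in the cycle by a network of homeodomain factors and Notch signals. The first neurons, above all ganglion cells, leave the cycle, while rods, bipolar cells and Müller glia are made later. In the lens, primary fibre cells elongate and fill with crystallins, the soluble proteins that give the lens its refractive power. Vessels, macrophages and neural crest-derived mesenchyme surround and enter the eye.

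Before normalization the median spot signal of the 6 arrays ran from 46.6 to 67.4 and the 75th percentile from 429 to 706. A gene was counted as detected in an eye when at least 1 of its probes was well above background by the flag of the scanner software, and 15339 to 17957 of 24304 genes passed in a single eye, with the most in XX 2 (17957) and XX 1 (17144). Signals of 2 eyes correlated with an r of 0.98 or more across the probes detected in all 6 eyes, a description across probes. The labels of sex held in all 6 eyes. *Xist*, which coats the inactive X chromosome, gave 1011, 1265 and 1159 in the XX eyes and 6.87 to 6.97 in the XY eyes at its brighter probe, and *Ddx3y*, a Y-linked RNA helicase, gave 7.10 to 8.09 in the XX eyes and 938, 872 and 1016 in the XY eyes. Probes placed on that chromosome also passed the flag in the XX eyes, which lack it. Whether such probes match sequences elsewhere was not tested. Of 151 probes placed on the Y chromosome, its unplaced pieces included, 22 to 50 were well above background in an XX eye, and *Sry*, the testis-determining gene, passed in XX 1 and XX 2 at signals of 46.8 and 35.4. Brighter signals at such probes also occurred in the XX eyes, where 9 or 10 of the 151 probes were above 500 and 19 were flagged in all 6 eyes. A flag alone, above all at a low signal, is therefore not read as expression.

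Of the 24304 genes, 14471 (59.5%) were detected in all 6 eyes, 4549 in 1 to 5 eyes and 5284 (21.7%) in none. Long intergenic non-coding regions were detected less often, with 3833 of 16194 probes (23.7%) in all 6 eyes against 19292 of 33145 probes (58.2%) of named genes. Nearly all probes with a median signal of 100 to 500 were flagged in all 6 eyes (99.4% of 7481), as were 11.2% of the 7137 probes between 20 and 50. The share of detected genes lay between 53.3% and 65.5% for every autosome and was 53.4% for the 940 genes of the X chromosome.

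Large gene families differed in the share detected, against 59.5% of all genes. The cytosolic ribosomal proteins were detected in all 6 eyes for 82 of 85 genes and the proteasome for 36 of 39, whereas 30 of 1084 olfactory receptors (2.77%), 16 of 259 vomeronasal receptors (6.18%) and 0 of 39 *Hox* genes, which pattern the trunk and hindbrain, were. Of the *Hox* genes, 23 were at background in every eye. *Pax6*, the factor needed for the optic cup and lens, was the only one of 9 *Pax* genes detected in all 6 eyes, and *Pax1*, *Pax4*, *Pax7*, *Pax8* and *Pax9* were at background in all. *Six2* to *Six6* were all detected, the *Irx* family was detected for 6 of 6 and the *Sox* family for 14 of 19, with *Sox6*, *Sox14* and *Sox30* at background. Several families lay near the share of all genes, with 7 of 13 *Tbx* genes, 3 of 6 *Dlx* genes and 8 of 12 LIM homeobox genes detected. Of 22 *Fgf* genes 12 were detected (54.5%), and *Fgf5*, *Fgf7*, *Fgf10*, *Fgf17*, *Fgf20* and *Fgf21* were at background.

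**Figure D1:**
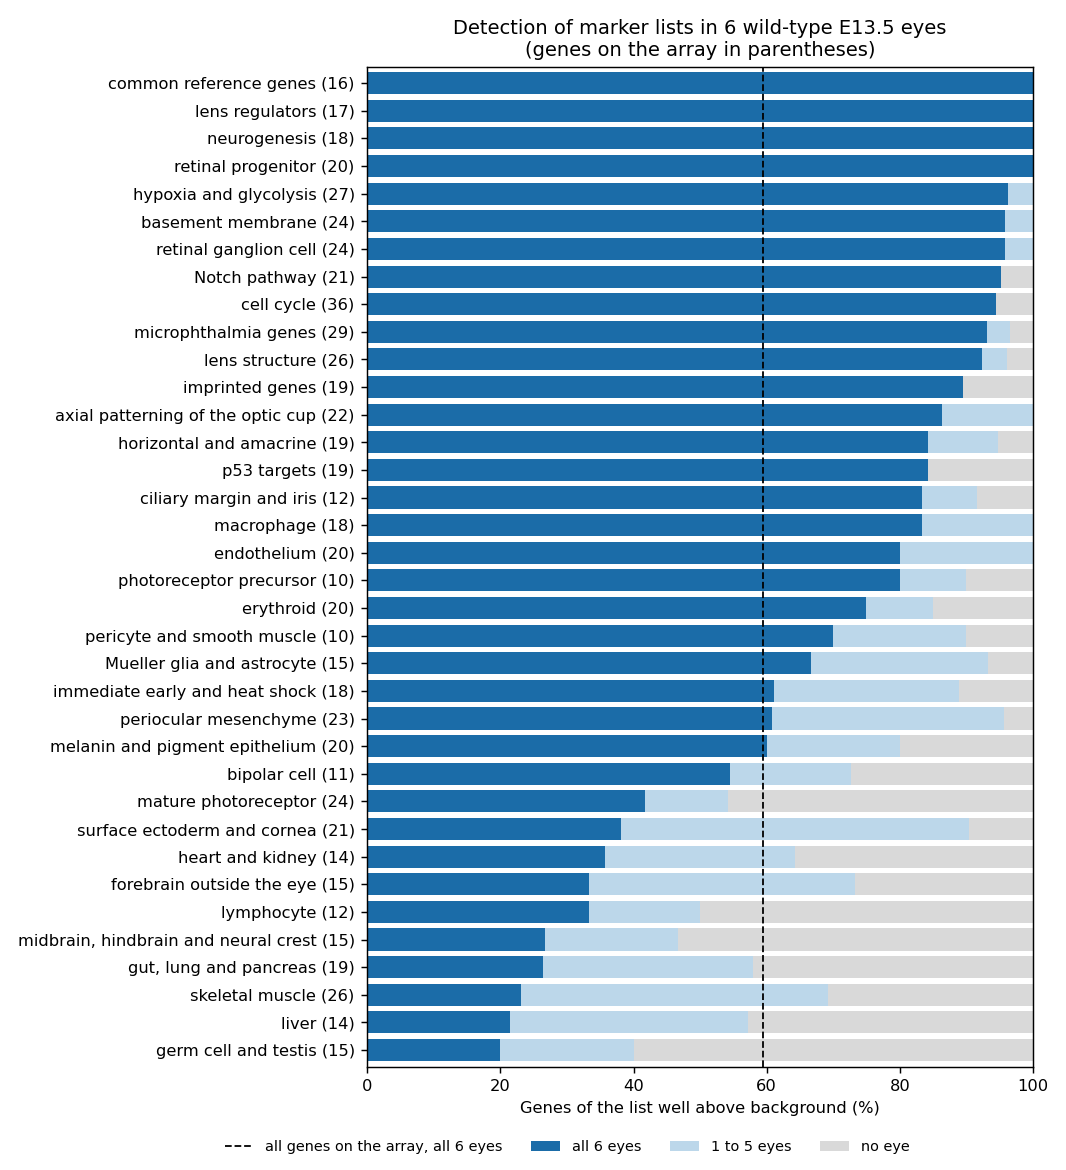
Share of the genes of each marker list (rows, genes on the array in parentheses) that were well above background in all 6, in 1 to 5 or in no WT eye, with the dashed line at the 59.5% of all genes detected in all 6 eyes. The lists of lens regulators, neurogenesis, retinal progenitors and common reference genes are full, and those of skeletal muscle, liver and germ cells lie at or below 23.1%.

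The brightest signals came from crystallins, histones and the translation machinery. Brightness depends on how well a probe binds as well as on the amount of RNA, so the order is one of signals and not of transcript numbers. Among the 30 genes with the brightest probe were *H2ac12*, *Cryga*, *Crygc*, *Slc10a1*, *Kctd14*, *H2aj*, *H2ac10*, *Cryaa*, *Tuba1b*, *Glrx2*, *Cryba1*, *Rn18s*, *Tpt1*, *Elk1*, *Crygd*, *Rps14*, *H2ac22*, *H2ac11*, *Ttc38*, *Rpl37a*, *H2ac15*, *Exosc2*, *Rn4.5s*, *H2ac20*, *Rps10*, *Actb*, *Rps27a*, *Rpl35* and *Rplp0*. The medians of the 30 over the 6 eyes ran from 386966 down to 258207. Among the 100 brightest genes were 33 ribosomal protein genes, 9 crystallins, 9 histones and 5 tubulins or actins, and 15 were named from a probe that holds a repeat, 28 were of other kinds and 1 was a globin. The 27 crystallin probes held 1.91% to 2.15% of all signal on an array and the 193 ribosomal protein probes 11.4% to 11.8%.

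*Cryga*, a γ-crystallin of fibre cells, gave between 353335 and 396490 in the 6 eyes with a median of 376199, an SD of 0.07 on the log2 scale. *Cryaa*, α-crystallin and a chaperone of the other crystallins, gave between 296581 and 400680 with an SD of 0.17. The γ-crystallin genes lie side by side on chromosome 1 and are alike in sequence. The probes of *Cryga* (chr1:65147137-65147196, mm9) and *Crygd* (chr1:65108602-65108661) share 45 of the 52 bases over which they overlap, as the stretches below show with the differing bases in capitals, so part of the signal of one may come from the other.
Cryga: tccAtGCaCgtgctGgagggctgctgggtc
Crygd: tccCtCAaTgtgctAgagggctgctgggtc
Histone H2A genes, most of them replication-dependent and transcribed in S phase, were closer still: 11 of the 21 pairs among the 7 bright H2A probes were at least 90% identical over 40 or more bases, and the 7 names cannot be counted as 7 separate transcripts. The probes of *H2ac12* (chr13:22127035-22127094) and *H2ac15* (chr13:21845304-21845363) differ at 1 of the 30 bases shown, in capitals.
H2ac12: ctgctgcccaagaagaccgagaGccaccac
H2ac15: ctgctgcccaagaagaccgagaCccaccac

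Of the 30 brightest names, 5 rested on a probe with letters that recur in the genome. A probe was counted as holding a dispersed repeat when a stretch of 20 of its bases was found, on either strand, in at least 10 of 32817 promoter windows of 300 bases (RefSeq, GRCm38.p6), and 94 probes of the array did besides those with a tandem repeat. The stretches that recur most are in capitals below, with probe positions in mm9, to show that *Kctd14*, *Glrx2*, *Elk1* and *Ttc38* share letters although they lie on chromosomes 7, 1, X and 15.
Kctd14 (chr7:104606896-104606955): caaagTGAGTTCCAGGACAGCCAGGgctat
Glrx2 (chr1:145596708-145596767): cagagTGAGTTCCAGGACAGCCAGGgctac
Elk1 (chrX:20510521-20510580): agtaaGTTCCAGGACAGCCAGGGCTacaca
Ttc38 (chr15:85688096-85688155): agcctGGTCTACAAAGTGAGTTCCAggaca
Exosc2 (chr2:31536706-31536765): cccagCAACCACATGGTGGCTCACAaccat
The capitals of *Kctd14* and *Glrx2* were found in 24 promoter windows, those of *Elk1* in 19, those of *Ttc38* in 17 and those of *Exosc2* in 57. Letters of this kind belong to the short interspersed elements of the mouse, B1 for the first 4 and B2 for the last. Other probes of the same genes were far dimmer. *Elk1*, a transcription factor of the ETS family, gave 289890 at this probe and 52.9 at its other one, *Kctd14* gave 341356 against 7.74 and 10.3, *Glrx2* 304489 against 35.2 and 5366, and *Ttc38* 284684 against 43.7 to 178 at its other 3, while *Exosc2* has no other probe. *Slc10a1*, a bile acid transporter of the liver, gave 346017 at a probe whose stretches recur in 2 promoter windows at most and 8.16, at background in every eye, at its other probe. The signals of these 6 names were therefore not read as levels of the genes. Without the probes that hold a repeat, 25 of the 30 names stayed.

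**Figure D2:**
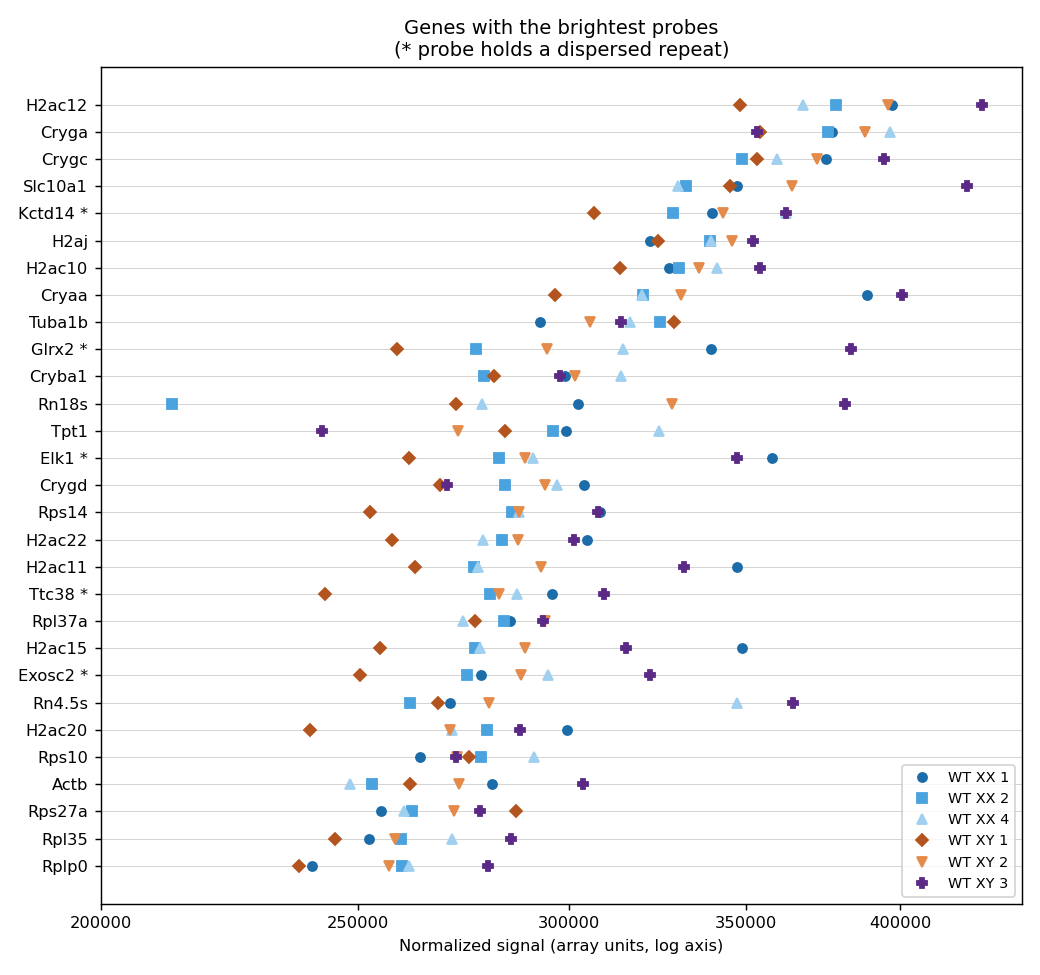
Normalized signal (log axis, array units) of 29 of the 30 genes with the brightest probe, 1 symbol for each WT eye, with an asterisk where the probe holds a dispersed repeat. All lie between 212701 and 429273, and *Rn18s*, the 18S ribosomal RNA, spreads most, from 212701 to 381122.

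The lens was represented by nearly the whole list of its structural genes. Of 26 on the array, 24 were detected in all 6 eyes (92.3%, against 59.5% of all genes), with a median signal of 50005 against 1171 for the brightest probes of all genes detected in all eyes. *Lgsn*, a lens protein related to glutamine synthetase, was at background in every eye, *Dnase2b*, the nuclease that removes fibre nuclei, was flagged in 5 eyes at a median of 34.6, and *Crybb2* and *Birc7* passed in all 6 at medians of only 73.0 and 70.4. The water channel *Mip* (31075), the beaded filament genes *Bfsp1* (11962) and *Bfsp2* (28594) and the gap junction gene *Gja3* (2535) were all present. All 17 lens regulators were detected, with *Cdkn1c*, a cyclin-dependent kinase inhibitor of cells leaving the cycle, at 47110, *Maf*, an activator of crystallin genes, at 6073, *Pitx3* at 2171, *Prox1* at 874 and *Foxe3*, needed for dividing lens epithelium, at 782.

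Retinal progenitor genes were detected without exception (20 of 20, against 59.5% of all genes), with a median signal of 9457. *Ccnd1*, the D-type cyclin of retinal progenitors, gave 65001, 77974 and 72462 in the XX eyes and 95918, 85447 and 112200 in the XY eyes. *Hes5*, a Notch target that holds cells undifferentiated, gave 71290, 78430 and 51359 in the XX eyes and 83126, 82263 and 66236 in the XY eyes. The ranges of the 2 genes thus span less than a doubling. The eye field factors *Rax* (44703, SD 0.06), *Lhx2* (24645, SD 0.15), *Six6* (14395, SD 0.14), *Six3* (9610, SD 0.07) and *Pax6* (8372, SD 0.13) were all detected, against a median SD of 0.11 for probes of 5000 to 20000 and for those of 20000 to 100000. *Pax6* gave 9230, 8056 and 9046 in the XX eyes and 7548, 8689 and 7553 in the XY eyes. Of 36 cell cycle genes 34 were detected (94.4%), with a median of 12152. *Aurkb* and *Ccne2* were at background in all eyes, which holds for their probes on this array. *Mki67*, a mark of cycling cells, had a median of 20757, and 20 of 21 Notch pathway genes were detected (95.2%), all but *Hey2*.

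Genes of dorsal and ventral patterning were both present. *Vax2*, a ventral factor, had a median of 14365, *Tbx5*, a dorsal one, of 2170, the dorsal enzyme *Aldh1a1* of 95746, the ventral enzyme *Aldh1a3* of 8931 and *Cyp26a1*, which degrades retinoic acid between them, of 2559. Of the 22 genes of the list 19 were detected in all eyes (86.4%, against 59.5% of all genes). *Pax2*, *Ntn1* and *Cyp26c1*, of which *Pax2* and *Ntn1* mark the optic stalk and disc, passed in 4, 4 and 2 eyes at medians of 31.5, 64.7 and 18.0.

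Neurogenic genes were all detected (18 of 18, against 59.5% of all genes). *Atoh7*, which gives progenitors the competence to become ganglion cells, had a median of 36167, *Foxn4*, a factor for amacrine and horizontal cells, of 45765 and *Neurog2* of 3171. Of 24 ganglion cell genes 23 were detected (95.8%). Among them were *Pou4f2* (16758), *Isl1* (2447), *Pou4f1* (2888), the neurofilament gene *Nefl* (28760) and *Gap43*, a growth cone protein (33657). *Thy1*, a marker of more mature ganglion cells, was flagged in 4 eyes at 28.2. Horizontal and amacrine genes were detected for 16 of 19 (84.2%), with *Ptf1a* at 1256, *Tfap2b* at 846 and *Slc32a1* at 805. *Barhl2* was at background.

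A larger share of the precursor genes of photoreceptors (80%) than of the mature ones (41.7%) was detected in all eyes, though signals did not always follow stage. Of 10 precursor genes 8 were detected in all eyes, led by *Otx2* (17459), which commits cells to the lineage, and *Rorb* (16770), while *Crx* and *Nrl*, later factors of the lineage, passed at only 191 and 167 and *Nr2e3*, a rod factor, was at background. Of 24 genes of mature photoreceptors, 10 were detected in all eyes (41.7%, against 59.5% of all genes) and 11 were at background in every eye (against 21.7% of all genes), among them *Opn1mw*, *Gnat1*, *Pde6b*, *Sag*, *Rcvrn*, *Cnga1*, *Prph2*, *Rp1*, *Aipl1* and *Slc24a1*. The brightest of the 10 detected in all eyes were *Rbp3*, a retinoid carrier between retina and pigment epithelium (2061), *Rom1* (1389) and *Guca1b* (785). Bipolar genes were detected for 6 of 11 (54.5%, near the 59.5% of all genes), and *Grm6*, *Nyx* and *Scgn* were at background. The brightest of these, *Cabp5*, rested on a probe with a tandem repeat (10122), and its other probe was at background in every eye (median 8.86). Of 15 genes of Müller glia and astrocytes 10 were detected (66.7%), with *Dkk3* at 75690 and *Glul* at 10772, genes that other retinal cells also use, against *Rlbp1* at 105 and *S100b* at background.

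Genes of cells from outside the neural retina were recorded too. Macrophage genes were detected for 15 of 18 (83.3%, against 59.5% of all genes). *Csf1r*, the receptor on which these cells depend, stood at 3248 and *Cx3cr1* at 1116. Endothelial genes were detected for 16 of 20 (80%), with *Kdr*, a VEGF receptor, at 5176 and *Cdh5*, a junction protein of vessels, at 514. The embryonic β-like globin *Hbb-y* had a median of 102351 and *Hba-a1* of 69062, while *Hba-a2*, which is not in the list, gave 253237. Of 20 erythroid genes 15 were detected in all eyes (75%). Basement membrane genes were detected for 23 of 24 (95.8%), led by *Sparc* (149695) and *Agrn* (26961). Of the mesenchyme list 14 of 23 genes were detected (60.9%, near the 59.5% of all genes). Of the melanin and pigment epithelium list 12 of 20 genes were detected, a share near the 59.5% of all genes. *Dct* (3434) and *Pmel* (2196), both of melanosomes, *Tyrp1* (450) and *Tyr* (91.5) passed in all eyes, while *Rpe65*, *Lrat* and *Best1*, genes of the mature pigment epithelium, and *Mlph* were at background in all. These genes are also used by melanocytes and the ciliary margin, and their source was not tested.

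Lists for tissues outside the eye were detected less often than all genes (59.5%), and so was that of the surface ectoderm and cornea, with 8 of 21 genes (38.1%). In all 6 eyes, 6 of 26 skeletal muscle genes were detected (23.1%), 3 of 14 liver genes, 5 of 19 of gut, lung and pancreas, 5 of 14 of heart and kidney, 3 of 15 of germ cells, 5 of 15 of the forebrain outside the eye, 4 of 12 of lymphocytes and 4 of 15 of midbrain, hindbrain and neural crest. The muscle factors *Myod1*, *Myf5*, *Myf6*, *Myog* and *Pax7* were at background in every eye, and no muscle gene had a median above 355. Members of these lists with a median above 500 were *Lhx6* (10781, at a probe with a tandem repeat), *Dlx2* (4852), *Dlx1* (1616), *Th*, tyrosine hydroxylase (1717), *Ptf1a* (1256), also in the amacrine list, *Apoa2* (1105), the T cell genes *Cd3e* (1015), *Cd4* (785) and *Lck* (711), *Cela1* (688), *Gcg* (603) and *Myh7* (504), with *Alb* and *Afp*, the main products of fetal liver, in 1 and 2 eyes at medians of 11.1 and 24.9.

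The 6 eyes were alike in most genes. Among 13973 probes detected in all 6 eyes with a mean signal above 500, the median SD over the eyes was 0.13 on the log2 scale, and 159 probes (1.14%) had an SD above 0.5. For comparison, 172 probes printed 10 times on each array had a median SD of 0.06 between their copies on 1 array and of 0.11 between eyes. The SD declined with brightness, from a median of 0.17 for signals of 500 to 1000 to 0.09 above 100000. The 10 genes with the smallest SD were *Msi2*, *Gm14217*, *Hnrnpm*, *Hmces*, *Psmc3*, *Gm16519*, *Stk24*, *Itm2a*, *Hebp1* and *Med8*, and *Msi2*, an RNA-binding protein of stem and progenitor cells, lay between 14.56 and 14.59 (log2) in all eyes.

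The eyes did not share the spread equally. XY 3 was the eye farthest from the mean of the 6 for 5190 of the 13973 probes and XX 1 for 4080, against 748 to 1734 for each of the other eyes. Of the 159 probes with an SD above 0.5, XY 3 was farthest for 115, and without XY 3 the count was 63.

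Of those 159 probes, 59 (37.1%) carry a tandem repeat, which was counted when 15 or more bases repeat a unit of up to 6 bases, against 346 of all 13973 (2.48%). Repeats of AAG, AG or, in *F10*, AAAG are shown in capitals below for the probes of variable genes, with probe positions in mm9.
Ermn (chr2:57900470-57900529): cgagGAAGAAGAAGAAGAAGAAGAAGtttg
Gab3 (chrX:72245336-72245395): GAAGAAGAAGAAGAAGAAGAAGAAGAAGAA
F10 (chr8:13056223-13056290): AGAAAGAAAGAAAGAAAGAAAGAAAGAAAG
Dcaf12l2 (chrX:41719459-41719518): GAGAGAGAGAGAGAGAGAGAGAGAtttcta
Shc4 (chr2:125453931-125453990): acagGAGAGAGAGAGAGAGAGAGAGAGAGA
Lzts3 (chr2:130459323-130459382): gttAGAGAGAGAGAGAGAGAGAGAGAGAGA
Of the 43 probes with the unit AAG 36 had an SD above 0.5, and their median deviation from the mean of the eyes was 1.37 in XY 3 and −0.14 to −0.43 in the other 5 eyes. Of the 8 probes with the unit AG 7 did, with a median of 1.03 in XY 3, 0.51 in XX 1 and −0.71 in XY 1. Probes with the unit GT (75) lay above the mean in XX 1 (0.50) and XY 3 (0.47) and below it in the others, whereas those with its complement AC (39) were lowest in XX 1 (−0.38) and highest in XY 2 (0.37). *Ermn*, the gene of the myelin protein ermin, gave 529, 611 and 532 in the XX eyes and 573, 478 and 4012 in the XY eyes at the repeat probe, so that only XY 3 stood apart. Its other probe, without a repeat and close to background, gave 22.3, 27.2 and 49.1 in the XX eyes and 102, 89.7 and 153 in the XY eyes, again highest in XY 3. The probes of *Gab3*, *F10*, *Dcaf12l2*, *Gcm1*, *Rhox8* and *Dcc* hold a repeat too and were likewise highest in XY 3. The probes named *Gcm1* and *Dcc* are placed on chromosome 7 in the files, whereas RefSeq has these genes on chromosomes 9 and 18. Whether the repeat has a part in these differences was not tested.

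**Figure D3:**
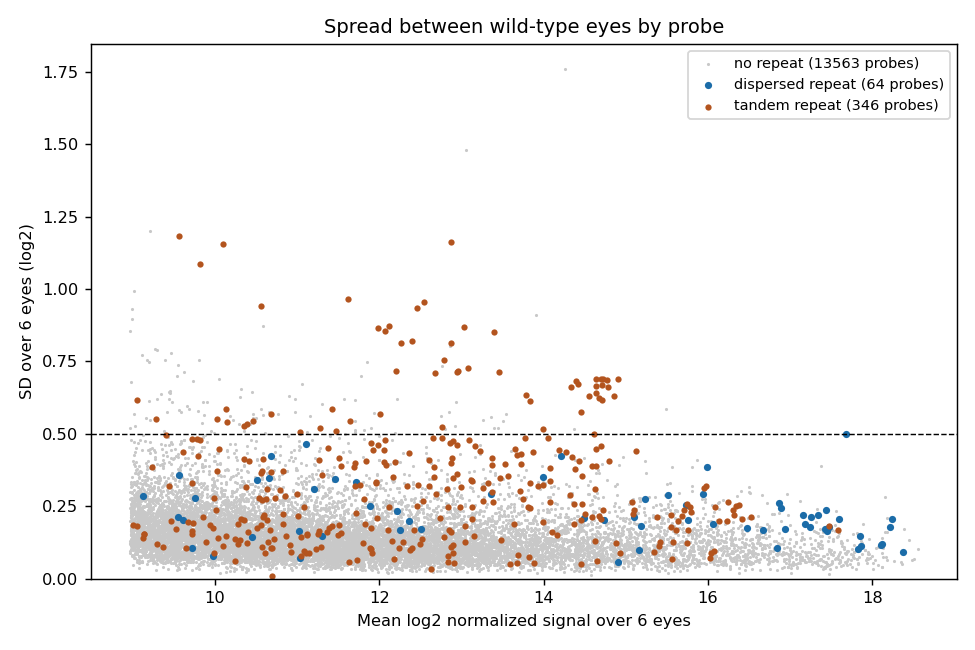
SD over the 6 WT eyes (log2) against mean log2 signal for 13973 probes detected in all 6, grey without a repeat, blue with a dispersed and orange with a tandem repeat, and a dashed line at 0.5. Above the line lie 59 of the 346 orange points, 0 of the 64 blue points and 100 of the 13563 grey points (0.737%).

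Among the 30 genes with the largest SD, 1 probe a gene, were *Gfra4*, *Ermn*, *Dcaf12l2*, *Col3a1*, *Shc4*, *Gcm1*, *Rs5-8s1*, *Ppp1r3b*, *Krtap19-5*, *F10*, *1500004F05Rik*, *Zfc3h1*, *Crym*, *Gm5106*, *Gab3*, *Cabp5*, *Lzts3*, *Emp1*, *Trio*, *Rhox8*, *Sfi1*, *Dcc*, *4930557B15Rik*, *Rmrp*, *Gbp5*, *Fam219a*, *Dvl3*, *C030009H01Rik* and *St6galnac1*, and 12 of the 30 rested on a tandem repeat. Of 9 genes that had 2 or more probes in this set and at least 1 with an SD above 0.5, 3 had a second one above 0.5 (*Fam219a*, *Gcm1* and *Gm10845*). *Gfra4*, a receptor component for a GDNF-family ligand, gave 16403, 14010 and 11761 in the XX eyes and 1085, 13414 and 9724 in the XY eyes. Only XY 1 was low. The gene's other 3 probes had medians of 247 and 80.7 and, for the third, a signal at background in every eye, and in none of them was XY 1 the lowest eye.

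Mesenchyme genes showed the largest common difference between eyes. *Col3a1*, a fibrillar collagen of loose connective tissue, gave 203, 513 and 525 in the XX eyes and 1437, 786 and 304 in the XY eyes. *Col1a1*, the main collagen of fibroblasts, gave 99.9, 259 and 348 in the XX eyes and 1588, 434 and 227 in the XY eyes. *Lum*, a proteoglycan of stroma, gave 87.5, 238 and 263 in the XX eyes and 1668, 456 and 307 in the XY eyes. For all 3, XY 1 was highest and XX 1 was lowest, and XY 3 lay among the XX eyes for both collagens and just above them for *Lum*. Over the 14 mesenchyme genes detected in all eyes, the mean log2 signal relative to the mean of the 6 eyes was −0.71 in XX 1 and 0.81 in XY 1, with 11 of 14 genes above the mean in XY 1 and 12 of 14 below it in XX 1. XX 1 and XY 1 were also the arrays with the lowest (429) and the highest (706) 75th percentile before normalization, and its part in the difference was not tested. With arrays scaled to that percentile the same eyes were at the ends, and the SD of the list mean was 0.46 in place of 0.50. Lists of other cell types moved with it, and that of Müller glia and astrocytes had the same ends (−0.18 and 0.17). The pericyte list was lowest in XX 1 (−0.44) and stood at 0.30 in XY 1, while in XY 1 the lens structure list (−0.13, 22 of 24 genes below the mean) and the erythroid list (−0.24, 14 of 15 below) were at their lowest, although the lens list was lowest in XY 3 under quantile normalization. Their part in the difference was not tested. *Eya2*, of the mesenchyme list, did not follow it, with 18023 to 20849 in the 6 eyes (SD 0.08). Outside the list, *Emp1* and *Crym* were also lowest in XX 1 and highest in XY 1, at 8.35 and 10.27 and at 8.28 and 10.28 (log2).

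The mean of the melanin list was also highest in XY 1 (0.42, 12 of 12 genes above the mean) and lowest in XX 2 (−0.30) and XX 1 (−0.29). *Pmel* gave 2096, 1297 and 1926 in the XX eyes and 4105, 2886 and 2296 in the XY eyes, and *Tyrp1* 261, 237 and 365 in the XX eyes and 879, 535 and 540 in the XY eyes. Both were lowest in XX 2 and highest in XY 1. How much of the pigmented layer or of the surrounding tissue was left on each eye was not recorded in the sources used here, and its part in these orders was not tested. Endothelial genes were lowest in XY 3, with a list mean of −0.40 and 16 of 16 genes below the mean. *Kdr* gave 6015, 5710 and 4642 in the XX eyes and 4237, 5855 and 2882 in the XY eyes. *Cdh5* gave 376, 457 and 570 in the XX eyes and 714, 747 and 301 in the XY eyes. *Kdr* was highest in XX 1, whereas *Cdh5* and the list mean were highest in XY 2. Each was lowest in XY 3. Macrophage genes were lowest in the same eye, with a mean of −0.26 and 12 of 15 genes below it, and without XY 3 the SD of that list mean was 0.06 in place of 0.14. XY 3 was also lowest for lists of tissues outside the eye, among them skeletal muscle (−0.44, 6 of 6 genes below the mean), liver (−0.36, 3 of 3), lymphocytes (−0.28, 4 of 4), midbrain, hindbrain and neural crest (−0.27, 4 of 4), forebrain (−0.25, 3 of 5) and gut, lung and pancreas (−0.23, 4 of 5), so the low values were not particular to vessels and macrophages.

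**Figure D4:**
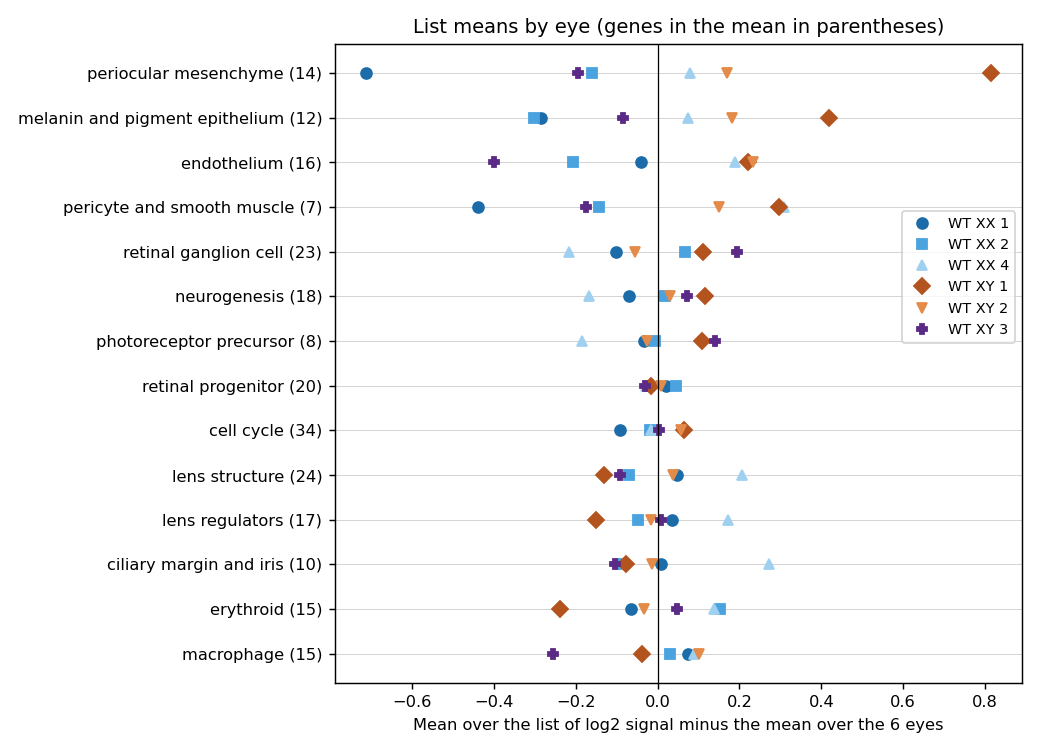
Mean over the genes of a list (rows, number of genes in parentheses) of log2 signal minus the mean of the 6 WT eyes, 1 symbol an eye. The mesenchyme list runs from −0.71 in XX 1 to 0.81 in XY 1, the retinal progenitor list only from −0.03 to 0.04, and XX 4 is highest in the lens and ciliary margin lists and lowest in those of ganglion cells and neurogenesis.

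XX 4 stood at one end of several lists. *Foxd1*, a factor of the temporal optic cup, gave 592, 824 and 1248 in the XX eyes and 979, 840 and 912 in the XY eyes, with XX 4 highest. The list of the ciliary margin and iris was highest in XX 4, where 10 of 10 genes lay above their mean over the eyes (list mean 0.27, others −0.10 to 0.01). *Wfdc1* gave 2459, 2440 and 3976 in the XX eyes and 2260, 2496 and 1993 in the XY eyes, and *Ccnd2*, a D-type cyclin enriched at the margin, gave 7302, 6517 and 9659 in the XX eyes and 6730, 6937 and 6828 in the XY eyes. The lens structure list was also highest in XX 4 (0.21, 21 of 24 genes above the mean) and the ganglion cell list lowest (−0.22, 21 of 23 genes below it), as was the neurogenesis list (−0.17, 15 of 18 genes below). Photoreceptor precursor genes (−0.18, 7 of 8 below) and horizontal and amacrine genes (−0.11, 12 of 16 below) were lowest there too. Among other lists highest in XX 4 were those of skeletal muscle (0.39, 6 of 6 genes above the mean), pericytes and smooth muscle (0.31, 6 of 7), heart and kidney (0.29, 4 of 5), midbrain, hindbrain and neural crest (0.24, 3 of 4), lens regulators (0.17, 12 of 17), mature photoreceptors (0.24, 7 of 10 genes above the mean), immediate early and heat shock genes, which respond to stress and handling (0.23, 11 of 11), and basement membrane (0.20, 21 of 23). The part of handling in these values was not tested. When arrays were scaled to their 75th percentile, skeletal muscle was highest in XY 2 and the pericyte list in XY 1, while the lens and ciliary margin lists stayed highest in XX 4. Without XX 4 the SD of the ciliary margin list mean was 0.05 in place of 0.14, and that of the lens structure list 0.08 in place of 0.12.

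The list means of retinal progenitor and cell cycle genes had an SD over the eyes of 0.03 and 0.06. Other lists were alike, with 0.02 for imprinted genes, 0.03 for axial patterning, 0.04 for the Notch pathway and 0.04 for common reference genes, against 0.50 for mesenchyme, 0.28 for melanin and 0.26 for endothelium. Of the 37 lists with 3 or more genes detected in all eyes, 7 had an SD above 0.2, the others being those of pericytes, skeletal muscle, liver and lymphocytes, which hold 3 to 7 such genes each. The median SD of single genes was 0.13 in the progenitor list and 0.12 in the cell cycle list, against 0.16 for the brightest probes of all detected genes, 0.41 in the mesenchyme list, 0.38 in the melanin list and 0.32 in the endothelial list. The progenitor and cell cycle lists are bright, and probes of 5000 to 20000 had a median SD of 0.11. The other 3 lists are dimmer, with median signals of 683, 478 and 641, and probes of 500 to 1000 had a median SD of 0.17.

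A few single genes stood apart in 1 eye. *Mdm2*, the ubiquitin ligase that restrains p53, gave 8108, 8385 and 8526 in the XX eyes and 8814, 3297 and 9589 in the XY eyes, low in XY 2 alone, while the median SD over the 16 detected p53 targets was 0.21. *Zfc3h1*, *Lca5* and *Clk4* were low in XX 1 alone, at 8.29, 8.40 and 9.05 (log2) against lowest values of 9.91, 9.60 and 10.32 in the other eyes. *Ftx* itself, which the study deletes in its other animals, was detected in all 6 eyes, at 50.1, 134 and 119 in the XX eyes and 110, 107 and 101 in the XY eyes. Its signal in XX 1 was the lowest and close to the 46.8 at which *Sry* passed the flag in the same eye.

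**Figure D5:**
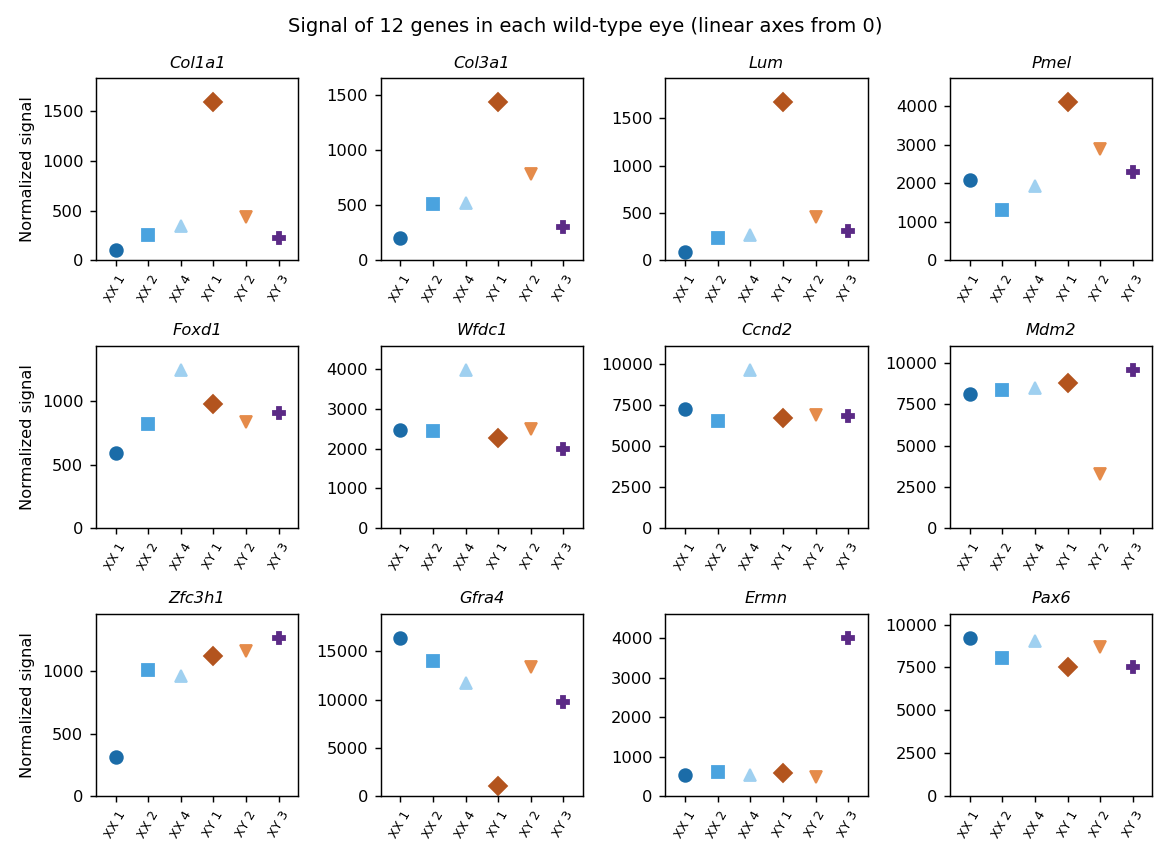
Normalized signal on linear axes from 0 of 12 genes in each WT eye, 1 symbol an eye. *Col1a1*, *Col3a1* and *Lum* peak in XY 1, *Foxd1* is highest in XX 4 (1248), *Mdm2* is low in XY 2 (3297), *Zfc3h1* in XX 1 and *Gfra4* in XY 1 (1085), *Ermn* is high in XY 3 (4012), and *Pax6* stays between 7548 and 9230.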

How the data were processed

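RNA of each eye was labelled with Cy3 and hybridised to an Agilent 1-colour array. The authors deposited, for each spot, the intensity given by Feature Extraction, background subtracted and not normalized between arrays, and flags of other kinds. A table of the same intensities, rounded, served as an alternative. From these, the 59305 probe spots of 31 arrays were brought to a common distribution by the quantile spline that the study's methods name, recoded in R 4.3.3 with 100 quantiles, an offset of at least 5 and 5 rounds. The 3671 control spots and outlier spots were left out, copies of a probe averaged, and log2 taken, which left 55681 probes. Probes were named through RefSeq accessions (27422 of 28830 found in GRCm38.p6, used for names only, 2787 with another symbol) or the file's name, 33145 probes for 24304 genes. Probe coordinates were taken from the files (mm9). No spot of a WT array was saturated, and the number of arrays limits the precision.

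No groups were compared, and no p-value was computed: values are levels, counts and SDs over 6 eyes. Lists, families and the rule for named genes (list members, the 30 brightest, the 30 most and 10 least variable genes, and *Ermn*) were written from general knowledge with earlier results of these data known. *Hba-a2* is named besides these. Of the listed genes, *Rian*, *Hspa1b*, *Mfrp* and *Cnbp2* were not found under these names. For list means the brightest detected probe of a gene was used. Values by eye were screened with Dixon's outlier criterion. The normalization and the SD were tested on simulated data. Alternatives were other normalizations (75th percentile, quantile, spline over the 6 arrays, normexp with an offset of 50 in limma 3.58.1, the table), other detection rules and filters, each eye left out and, chosen after seeing the data, repeat probes left out. Figures and tables were made with pandas 2.3.3 and matplotlib 3.10.9. Some named genes that the rule would give are not reported here.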

Additional observations from a re-analysis of the deposited data

Results flagged for a closer look

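Of 143 values by eye that the text reports, 23 held 1 eye whose distance to its nearest neighbour was, as a share of the whole range of the 6 eyes (in parentheses below), above Dixon's 95% critical value. Chance flags about 1 in 20, and the genes with the largest SD were chosen for their spread. XY 3 stood apart at repeat probes, high for *Ermn* (0.885), *Gcm1* (0.911), *Gab3* (0.718), *Rhox8* (0.800) and the probe named *Dcc* (0.639) and for the share of signal on tandem repeat probes (0.638, 3.72% against 2.40% to 2.88%), and at probes without a repeat it was high for *Gm4470* (0.714) and low for *Ptpn5* (0.687), *Pde1a* (0.666) and *4930432M17Rik* (0.709). XX 4 was high for *Ccnd2* (0.711), *Wfdc1* (0.674) and the list means of ciliary margin and iris (0.697) and of mature photoreceptor genes (0.702). XX 1 was low for *Zfc3h1* (0.803), *Lca5* (0.789), *Clk4* (0.859), *Ftx* (0.713) and *Abcc9*, a gene of pericytes (0.644). XY 1 was low for *Gfra4* (0.807) and high for *Dcn*, a proteoglycan of stroma (0.647, 1730 against 146 to 350), and XY 2 was low for *Mdm2* (0.843).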

How the results depend on the processing

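No paired analysis was possible because no groups were compared. The number of genes detected in all 6 eyes was 14471 and depended on the rule: 8985 with a normalized signal above 500 and 25553 when probes were counted, and it was 14474 to 14754 with an eye left out. The number at background in all eyes, 5284, was 1342 with the looser flag of a positive and significant signal, 14306 at a signal of 500 and 16578 for probes, and 5387 to 5871 with an eye left out. Leaving an eye out can only raise either count, so these ranges do not measure stability. The median SD of 0.13 was 0.28 in the table with no normalization between arrays and 0.11 to 0.14 with an eye left out. The 159 probes above an SD of 0.5 were 317 without normalization, 1897 with no minimum on the signal, 100 without repeat probes, and 63 to 211 with an eye left out, lowest without XY 3. Lists with an SD of their mean above 0.2 numbered 7, against 4 with normexp and 32 without normalization, and 5 to 9 with an eye left out. At least 25 of the 30 brightest names stayed under each of the normalizations and with each eye left out. The SDs of 42 variable genes stayed within 1.5 times under all 6 other normalizations. For the SDs of 15 list means, 195 of 210 alternative values stayed within 1.5 times and 15 did not. These include values with an eye or the repeat probes left out. Dim probes limit what can be said of genes near background.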
